A study of Mus musculus with 12 samples.

Results

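The 9 genes described here encode small leucine-rich proteoglycans of the extracellular matrix: Dcn (decorin), Bgn (biglycan), Lum (lumican), Fmod (fibromodulin), Ogn (osteoglycin, also called mimecan), Aspn (asporin), Prelp (prolargin), Omd (osteomodulin) and Podn (podocan). They were taken by mouse gene symbol from 49315 genes in the count tables, and all 9 were found. All 9 also passed the filter on low counts that left 17164 genes to be tested, Lum only through the DMSO libraries, where it was higher. RNA came from wild-type primary Müller glia, the retina's main glia, grown from papain-dissociated mouse retina in serum and passaged at least 3 times. These cells then shared medium across a transwell membrane with cultured retinal pigment epithelium (RPE). The 4 groups of 3 libraries each were glia facing RPE given 100 nM PNU-282987 (PNU), which activates the α7 nicotinic acetylcholine receptor, for 2 h, glia facing RPE given the DMSO solvent alone for 2 h, and the PNU and DMSO groups at 6 h. PNU was dissolved in DMSO, so all groups received the solvent, whose concentration the labels give differently in different places. The sources used here give neither strain nor age. The comparison asks whether RPE exposed to PNU changed expression in the glia it faced.

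Small leucine-rich proteoglycans are secreted proteins built around a curved run of leucine-rich repeats, and most carry sulfated sugar chains. They bind collagen fibrils and control how thick and how evenly spaced the fibrils become, and several also bind growth factors of the TGF-β family and cell-surface receptors. Decorin, biglycan and asporin form one class, of which decorin and biglycan carry chondroitin or dermatan sulfate. Lumican, fibromodulin, prolargin and osteomodulin form another, often with keratan sulfate, while osteoglycin and podocan each belong to other, more distant classes. Lumican and its relative keratocan are known for keeping the cornea transparent.

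Replication within the groups was uneven. Replicates 2 and 3 of PNU at 2 h, replicates 2 and 3 of PNU at 6 h and the 3 replicates of DMSO at 6 h hardly differed, with pairwise biological coefficients of variation of 0.0163 to 0.0223, against 0.148 to 0.384 for the other pairs within a group. Their counts still differed by more than sampling noise, with a chi-square per degree of freedom of 2.01 to 3.24, which does not show that they came from separate cultures. Each library was counted once, and a fit with near-identical libraries summed is given as an alternative. The samples are labelled as biological replicates with no word on separate animals or cultures, so a p-value measures only how far these samples spread, which may be technical. DMSO replicate 3 at 2 h and PNU replicate 1 at 6 h stood apart from their groups, with coefficients of 0.351 and 0.384 and of 0.277 and 0.279 to their own replicates, and the comparisons below are given with and without this pair of libraries. Library totals ran from 44332013 to 66518799 counts, and 3 counts, taken as the floor of detection, equal 0.0451 to 0.0677 CPM (a gene's count scaled to the library total) and cover counting error only. The Y-linked gene Ddx3y was at 2.23, 0.0870 and 0.0150 CPM in PNU replicates 1, 2 and 3 at 2 h, against 0.0338, 0.0386 and 5.00 CPM with DMSO. At 6 h it was at 0.141, 7.43 and 6.74 CPM in the PNU replicates, against 0.0451, 0.0378 and 0.141 CPM with DMSO. At 6 h, Ddx3y was thus at 6.74 CPM or above in the near-identical PNU pair. It was at 0.141 CPM or below in PNU replicate 1 and with DMSO. The X-linked Xist was at 0.439, 2.46 and 2.13 CPM with PNU at 6 h, against 0.969 to 1.23 CPM with DMSO. At 2 h Xist was at 0.133, 0.0653 and 0.0902 CPM with PNU, against 0.777, 0.888 and 0.0469 CPM with DMSO. The PNU pair at 6 h was thus highest in both genes. PNU replicates 2 and 3 at 2 h were at 0.0902 CPM or below in both. Ddx3y and Xist thus did not simply run opposite to each other. The part of such differences between cultures in the results was not tested.

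The labelled cell type was only partly matched by its markers. Of 20 Müller glia markers, 9 had a median above 1 CPM, and the glutamine synthetase gene Glul stood at 61.5 to 94.4 CPM, while Rlbp1, the retinaldehyde-binding protein of these cells, reached at most 0.302 CPM and the water channel Aqp4 at most 0.218 CPM. Of 20 fibroblast markers, 16 had a median above 1 CPM, and the collagen chain Col1a1 stood at 3509 to 4895 CPM. Kera, encoding the corneal proteoglycan keratocan, reached at most 0.0311 CPM and Rpe65, a defining gene of RPE, at most 0.044 CPM. In such bulk RNA, fewer cells of a type and less RNA per cell cannot be told apart.

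Per kilobase of exon, Bgn was by far the most abundant of the 9. Its mean over the 12 libraries was 1015 CPM per kb, followed by Prelp at 136, Ogn at 20.5, Dcn at 15.2, Aspn at 2.73, Podn at 1.71, Omd at 1.57, Fmod at 0.419 and Lum at 0.175 CPM per kb. The ranges of Bgn and Prelp, of Prelp and Ogn, and of Dcn and Aspn did not overlap over the 12 libraries. The other neighbours in this order overlapped, with Ogn above Dcn in 8 of 12 libraries, Aspn above Podn in 11, Podn above Omd in 7, Omd above Fmod in 11 and Fmod above Lum in 10. Ranked by CPM among all genes, Bgn held places 3 to 9 and supplied 88.5% to 94.4% of the counts of the 9 genes. Prelp held places 157 to 655. The members differed in how far they varied, with a highest-to-lowest CPM ratio over the 12 libraries of 1.48 for Bgn, 2.01 for Fmod, 2.89 for Prelp, 3.46 for Dcn, 6.68 for Ogn, 9.24 for Omd, 10.5 for Aspn and 13.4 for Podn. Lum was above the floor of detection in 8 of 12 libraries and above 1 CPM in 1.

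**Figure D1:**
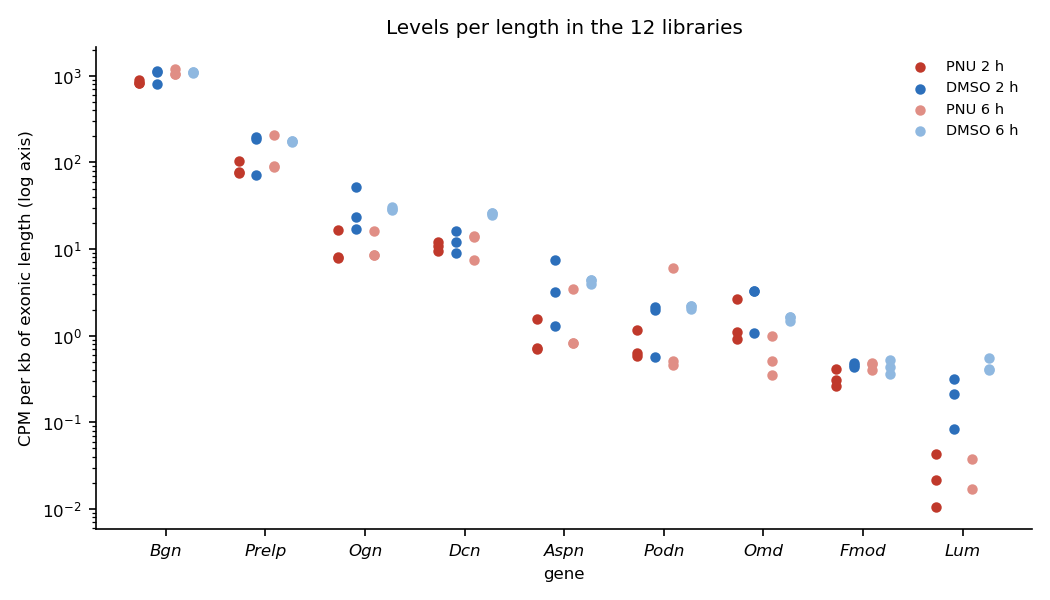
Level of each of the 9 genes in every library, in CPM per kilobase of exonic length on a log axis, with 1 point per library coloured by group. Bgn lies highest, at a mean of 1015 CPM per kb, and Lum lowest, at a mean of 0.175 CPM per kb. The Lum library with 0 counts is not drawn.

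Several members lie side by side in the genome (GRCm38, positions as in the count tables). Aspn (ENSMUSG00000021388, chromosome 13, 49544443 to 49567565, plus strand), Omd (ENSMUSG00000048368, 49582766 to 49592609, plus) and Ogn (ENSMUSG00000021390, 49608071 to 49624500, plus) span 80.06 kb. Dcn (ENSMUSG00000019929, chromosome 10, 97479500 to 97518162, plus) and Lum (ENSMUSG00000036446, 97565501 to 97572703, plus) span 93.2 kb, and Prelp (ENSMUSG00000041577, chromosome 1, 133910304 to 133921414, minus) and Fmod (ENSMUSG00000041559, 134037254 to 134048277, plus) span 138 kb. Bgn (ENSMUSG00000031375, X chromosome, 73483602 to 73495933, plus) and Podn (ENSMUSG00000028600, chromosome 4, 108014791 to 108096445, minus) stand alone among the 9. Aspn, Omd and Ogn lie within the span of Cenpp on the opposite strand but share 0 exonic bases with it, and Cenpp reached at most 3.47 CPM. Prelp shares 350 exonic bases with the antisense gene Gm15851, which reached at most 1.45 CPM. The sources used here do not give whether strand was used in counting, so reads in that stretch cannot be assigned to either gene.

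The 250 bases upstream of the start of the 3 chromosome 13 genes and of Bgn, read from RefSeq (GRCm38.p6), are shown because Ogn and Aspn followed each other closely over the libraries while Omd, from the same cluster, did so less closely, and because Bgn was so much more abundant than the rest. Each runs 5′ to 3′ on the gene's own strand and ends at the base before the RefSeq start. Capitals mark matches, on either strand, to TATAAA, to the AP-1 word TGANTCA, to the GC box GGGCGG or to the E-box CAGCTG, and 7 of the 9 genes had a RefSeq entry. The windows are chr13:49544193-49544442 for Aspn, chr13:49582212-49582461 for Omd, chr13:49607765-49608014 for Ogn and chrX:73483351-73483600 for Bgn, all on the plus strand.
Aspn: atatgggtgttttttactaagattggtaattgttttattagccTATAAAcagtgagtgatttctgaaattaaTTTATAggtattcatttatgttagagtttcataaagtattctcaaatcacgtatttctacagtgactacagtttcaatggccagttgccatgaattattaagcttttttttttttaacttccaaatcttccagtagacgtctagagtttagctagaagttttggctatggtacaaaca
Omd: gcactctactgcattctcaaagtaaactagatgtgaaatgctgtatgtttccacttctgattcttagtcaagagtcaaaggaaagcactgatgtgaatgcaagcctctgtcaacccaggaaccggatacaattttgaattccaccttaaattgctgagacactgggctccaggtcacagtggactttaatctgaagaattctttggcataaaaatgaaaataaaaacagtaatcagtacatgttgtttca
Ogn: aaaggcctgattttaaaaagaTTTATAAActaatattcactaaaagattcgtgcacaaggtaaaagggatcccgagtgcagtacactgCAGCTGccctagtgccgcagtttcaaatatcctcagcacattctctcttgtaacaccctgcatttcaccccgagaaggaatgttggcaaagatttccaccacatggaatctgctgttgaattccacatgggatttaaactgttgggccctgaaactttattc
Bgn: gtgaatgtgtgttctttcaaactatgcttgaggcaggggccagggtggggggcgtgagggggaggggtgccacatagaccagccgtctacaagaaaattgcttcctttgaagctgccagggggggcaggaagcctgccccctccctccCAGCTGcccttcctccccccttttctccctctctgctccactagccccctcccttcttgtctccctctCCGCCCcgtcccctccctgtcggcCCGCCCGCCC

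The Aspn window held 2 matches to TATAAA and the Ogn window 2 that overlap each other, 178 to 229 bases upstream of the start in these genes, and the Ogn window also held 1 CAGCTG. The Bgn window held 3 GC boxes, a pair of them overlapping, within 34 bases of the start and 1 CAGCTG. GC boxes were not particular to Bgn, since a window of Podn (1.71 CPM per kb), with 78% GC, held 2. A further Podn window held 1 CAGCTG. The RefSeq starts of these Podn windows lie 64491 and 65459 bases from the 5′ end of Podn as counted, within its span. For Omd this distance is 304 bases, for Ogn 56, for Bgn 1 and for Aspn 0. The windows of Prelp (136 CPM per kb) and Fmod held none of the words. None of these words was found in the Omd window, and TGANTCA was found in none of the windows of the 7 genes. The windows differed in base composition, with a GC content of 30% for Aspn, 38.4% for Omd, 42% for Ogn and 64.4% for Bgn. Among 32851 mouse promoter windows of the same length, 12.37% held TATAAA, 6.749% TGANTCA, 32.74% GGGCGG and 13% CAGCTG, so the words are common and a match is a description of the letters only.

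At 6 h, Dcn and Lum were lower in glia facing PNU-treated RPE than in glia facing DMSO-treated RPE, and the other 7 members did not pass the test. Dcn fell to 0.460 times its DMSO level and Lum, at much lower counts, further still. Thus 2 of 9 members fell and 0 rose, where 0.484% of all tested genes were called lower, 0.571% higher and 1.05% in either direction. The median log2 fold change of the 9 was -1.12, with 6 negative and 3 positive, against -0.00 over all 17164 genes, of which 49.3% were positive. Calls are from edgeR's quasi-likelihood test at an adjusted p of 0.05. At an unadjusted p under 0.05 there were 4 of 9, where 15.6% of all genes were. DESeq2 and limma-voom each called 2 of the members, Dcn and Lum, where they called 5.38% and 1.04% of all genes. Lum could be tested only because it was high with DMSO. Counts that include it, here and below, are therefore not read against shares of all genes. Under a filter of 1 CPM in 3 libraries, which leaves Lum out, Dcn alone was called among the members, where 1.36% of all genes were.

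Dcn, a collagen-binding protein that also binds TGF-β, was measured at 15.8, 29.1 and 28.5 CPM in PNU replicates 1, 2 and 3 at 6 h, against 52.1, 54.6 and 54.5 CPM with DMSO. Every PNU library was below every DMSO library, and the lowest was PNU replicate 1. The means were 24.5 ± 7.53 and 53.7 ± 1.43 CPM (SD, n = 3 each), and the log2 fold change was -1.12 ± 0.23 (SE, edgeR adjusted p = 0.0467). Without both libraries that stood apart it was -0.89 (adjusted p = 6.75e-05). The call ended without PNU replicate 2 (adjusted p = 0.106) or 3 (0.120), without DMSO replicate 1 (0.170), 2 (0.188) or 3 (0.194), without a filter on low counts (0.0688), and with near-identical libraries summed (1.00), which leaves 2 PNU samples and 1 DMSO sample at 6 h.

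Lum, which regulates collagen fibril assembly in the cornea and other tissues, had 2, 5 and 0 counts in the 3 PNU libraries at 6 h, against 37, 60 and 48 counts with DMSO. These are 0.0351, 0.0777 and 0 CPM with PNU and 0.835, 1.13 and 0.845 CPM with DMSO, so that the PNU libraries were at or near the floor and the groups did not overlap. Pooled over the libraries of a group, 7 counts with PNU against 145 with DMSO gave a ratio of CPM of 0.0402 (exact 95% interval 0.0159 to 0.0849, counting error only). The edgeR log2 fold change was -4.54 ± 0.68 (SE, adjusted p = 0.0108), a fitted value that depends on the prior count. Lum passed the filter on low counts, with its minimum count of 10, only through the DMSO libraries. The call ended without DMSO replicate 2 (adjusted p = 0.0643) or 3 (0.0538) at 6 h and with near-identical libraries summed (1.00).

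**Figure D2:**
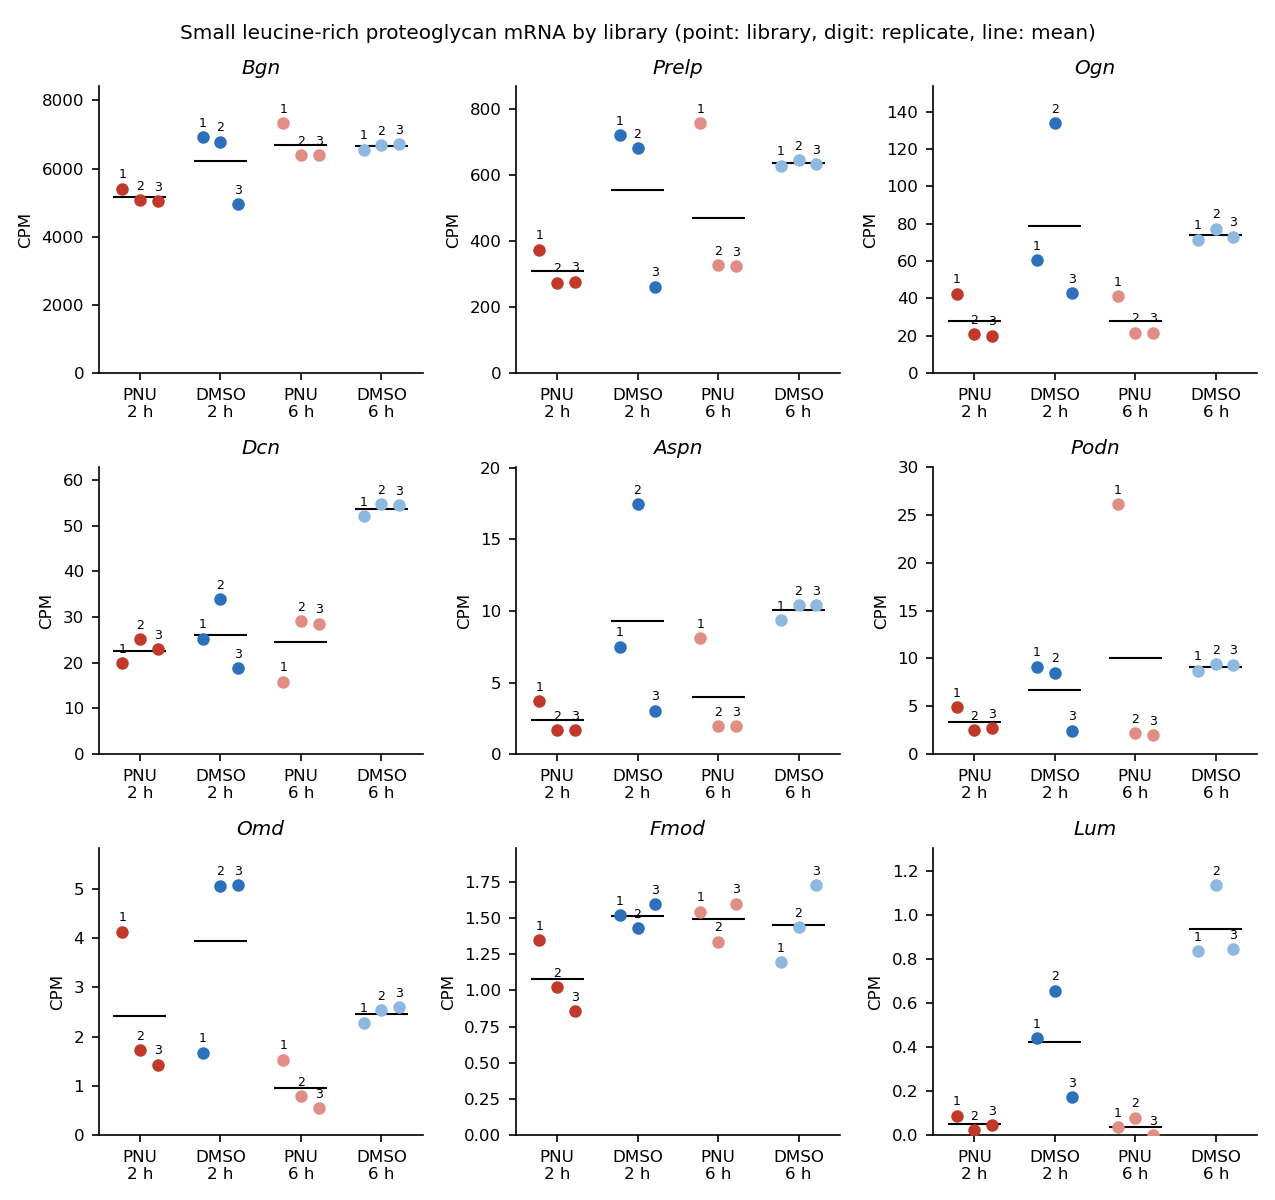
CPM of each of the 9 genes in the 12 libraries, 1 panel per gene, with groups in the order PNU 2 h, DMSO 2 h, PNU 6 h and DMSO 6 h; a point is a library, its digit the replicate number, and a line the group mean. At 6 h the Dcn points lie at 15.8 to 29.1 CPM with PNU and at 52.1 to 54.6 CPM with DMSO, and the Podn point of PNU replicate 1 stands at 26.1 CPM, above all other libraries.

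The 3 genes of the chromosome 13 cluster were also lower in every PNU library than in every DMSO library at 6 h, but none passed the test in the fit of all 12 libraries. Ogn, first described in bone and found in many connective tissues, stood at 41.0, 21.7 and 21.5 CPM with PNU, against 71.5, 77.3 and 72.9 CPM with DMSO, a log2 fold change of -1.38 ± 0.43 (SE, edgeR adjusted p = 0.151). In a fit of the 6 h libraries alone, Ogn was called too (adjusted p = 0.0268), which made 3 members called, where 10.1% of all genes were called. Aspn, a decorin relative that binds collagen and TGF-β, stood at 8.12, 1.93 and 1.96 CPM with PNU, against 9.34, 10.4 and 10.4 CPM with DMSO, a log2 fold change of -1.31 ± 0.66 (adjusted p = 0.377). For both genes PNU replicate 1 was the PNU library nearest to the DMSO values. Omd, a keratan sulfate proteoglycan of mineralized tissue, stood at 1.53, 0.793 and 0.549 CPM with PNU, against 2.28, 2.53 and 2.59 CPM with DMSO, a log2 fold change of -1.36 ± 0.51 (adjusted p = 0.229). With Dcn and Lum, 5 of 9 members had all PNU libraries below all DMSO libraries, where 20.8% of all tested genes did, and 0 had them above, where 14.1% did. Because Lum passed the filter only through the DMSO libraries, the count of 5 is not read against these shares.

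For Bgn and Fmod the groups overlapped at 6 h and the fitted differences were small. Bgn, a decorin relative that also signals through Toll-like receptors when soluble, stood at 7326, 6397 and 6398 CPM with PNU, against 6559, 6689.6 and 6713 CPM with DMSO. Its log2 fold change was 0.03 ± 0.12 (SE, edgeR adjusted p = 0.942). Fmod, a collagen-fibril regulator of tendon and other tissues, stood at 1.55, 1.34 and 1.60 CPM with PNU, against 1.20, 1.44 and 1.73 CPM with DMSO, a log2 fold change of 0.05 ± 0.21 (adjusted p = 0.933).

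Prelp, which anchors basement membranes to connective tissue, stood at 756, 327 and 324 CPM with PNU at 6 h, against 629, 646 and 632 CPM with DMSO, a log2 fold change of -0.42 ± 0.39 (SE, edgeR adjusted p = 0.653). PNU replicate 1 was above every DMSO library and the other PNU libraries below them. Podn, a collagen-binding protein of vessel walls and other tissues, stood at 26.1, 2.18 and 1.94 CPM with PNU, against 8.73, 9.38 and 9.35 CPM with DMSO. As for Prelp, PNU replicate 1 was on the other side of DMSO from its partners, and the log2 fold change was 0.16 ± 0.86 (adjusted p = 0.953). Without PNU replicate 1 at 6 h the Podn value turned to -2.14 (adjusted p = 0.0362).

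Without both libraries that stood apart, 7 of 9 members were called lower at 6 h, which were all but Bgn and Fmod, but 28.6% of all tested genes were then called in either direction. The log2 fold changes were then -4.50 for Lum, -2.36 for Aspn, -2.14 for Podn, -1.86 for Omd, -1.76 for Ogn, -0.95 for Prelp and -0.89 for Dcn, with edgeR adjusted p-values of 6.52e-05 for Podn to 0.0394 for Omd. The remaining PNU libraries at 6 h are then a near-identical pair, set against 3 near-identical DMSO libraries. This PNU pair had Ddx3y at 7.43 and 6.74 CPM, against 0.0378 to 0.141 CPM with DMSO at 6 h. Its Xist level was 2.46 and 2.13 CPM, against 0.969 to 1.23 CPM with DMSO at 6 h. In this setting PNU and the levels of Ddx3y and Xist changed together, and the part of such differences between cultures was not tested.

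At 2 h all 9 members had a negative log2 fold change of PNU over DMSO, but none passed the test, where 0.291% of all tested genes did and 0.0816% were called lower. The median was -0.81, against -0.01 over all genes, of which 48.3% were positive. At an unadjusted p under 0.05 there were 3 of 9 members (Lum, Ogn and Aspn), where 30% of all genes were, and DESeq2 called the same 3 genes lower while limma-voom called 0. DESeq2 called 14.6% of all genes at 2 h, 1526 of the 17164 lower, and limma-voom 0.437%. Lum, Fmod and Ogn, or 3 of 9, had every PNU library below every DMSO library, where 13.6% of all genes did, and 0 had them above, where 9.06% did. As Lum passed the filter only through the DMSO libraries, counts that include it are not read against the shares.

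Lum had 4, 1 and 3 counts in the PNU libraries at 2 h, against 26, 34 and 11 counts with DMSO. In CPM these are 0.0884, 0.0218 and 0.0451 with PNU and 0.439, 0.656 and 0.172 with DMSO. The pooled 8 counts with PNU against 71 with DMSO gave a ratio of 0.125 (exact 95% interval 0.0520 to 0.260, counting error only), and edgeR a log2 fold change of -2.94 ± 0.70 (SE, adjusted p = 0.0636). The order of the groups at 2 h was therefore that at 6 h.

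Ogn stood at 42.4, 20.8 and 20.0 CPM with PNU at 2 h, against 60.4, 133.7 and 42.8 CPM with DMSO, a log2 fold change of -1.45 ± 0.43 (SE, edgeR adjusted p = 0.0780). PNU replicate 1 and DMSO replicate 3 nearly met. Aspn stood at 3.69, 1.68 and 1.67 CPM with PNU, against 7.52, 17.5 and 3.02 CPM with DMSO, a log2 fold change of -1.94 ± 0.69 (adjusted p = 0.102). Its groups overlapped through DMSO replicate 3. Omd stood at 4.13, 1.72 and 1.43 CPM with PNU, against 1.67, 5.06 and 5.07 CPM with DMSO, a log2 fold change of -0.65 ± 0.49 (adjusted p = 0.380). In Omd the low DMSO library was replicate 1, not replicate 3.

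Bgn stood at 5413, 5071 and 5047 CPM with PNU at 2 h, against 6925, 6788 and 4956 CPM with DMSO, a log2 fold change of -0.23 ± 0.12 (SE, edgeR adjusted p = 0.213). Prelp stood at 374, 273 and 277 CPM with PNU, against 720.0, 681 and 261 CPM with DMSO, a log2 fold change of -0.81 ± 0.39 (adjusted p = 0.190). In both genes DMSO replicate 3 was below every PNU library and the other DMSO libraries above them. Podn stood at 4.90, 2.50 and 2.71 CPM with PNU, against 9.12, 8.49 and 2.44 CPM with DMSO, and repeated that order, with a log2 fold change of -0.95 ± 0.88 (adjusted p = 0.475).

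Dcn stood at 19.8, 25.1 and 22.9 CPM with PNU at 2 h, against 25.2, 33.9 and 18.8 CPM with DMSO, and the groups overlapped (log2 fold change -0.16 ± 0.23, SE, edgeR adjusted p = 0.650). Fmod stood at 1.35, 1.02 and 0.857 CPM with PNU, against 1.52, 1.43 and 1.60 CPM with DMSO. The Fmod groups did not overlap, and its log2 fold change was -0.46 ± 0.22 (adjusted p = 0.174).

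Leaving out DMSO replicate 3 at 2 h alone turned the count of members called at 2 h to 5, where 43.8% of all tested genes were then called. These were Lum (log2 fold change -3.32, edgeR adjusted p = 0.00107), Aspn (-2.36, 0.0222), Ogn (-1.75, 0.0128), Prelp (-1.15, 0.0264) and Bgn (-0.37, 0.00441), all lower with PNU. Without both libraries that stood apart 7 members were called lower at 2 h, which added Podn (-1.36, 0.000324) and Dcn (-0.34, 0.0140), against 52.2% of all genes called in either direction.

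**Figure D3:**
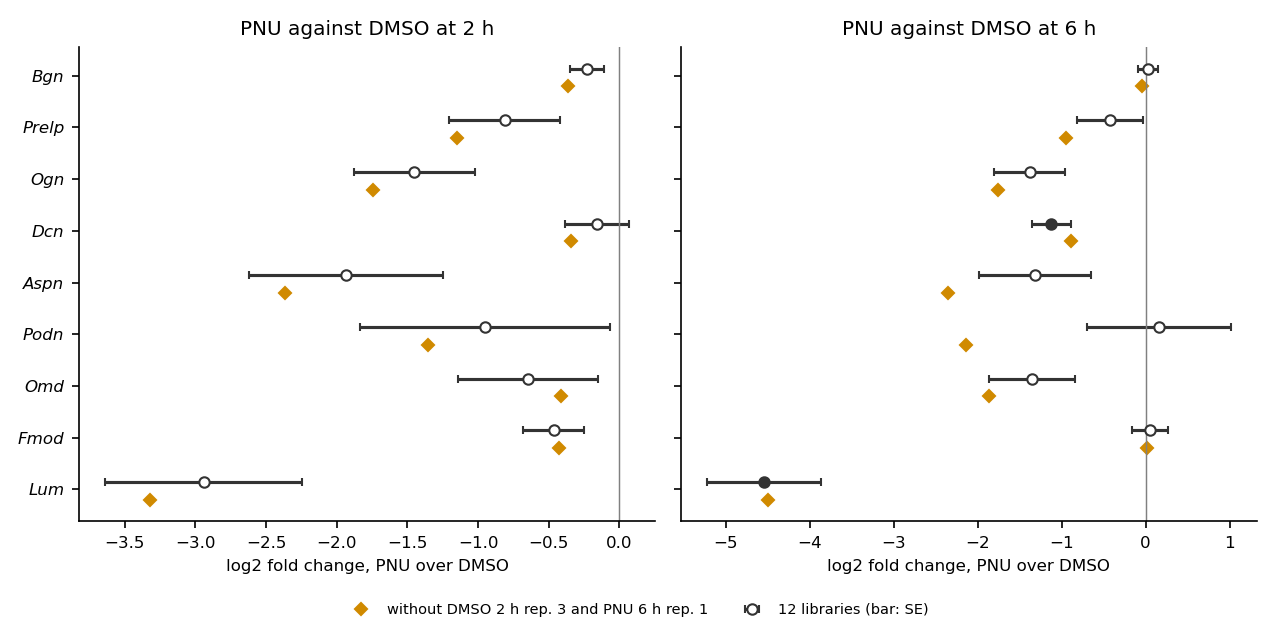
Log2 fold change of PNU over DMSO for each gene at 2 h and at 6 h. Circles are the fit over all 12 libraries with a bar of 1 SE, filled where the adjusted p was under 0.05, and diamonds the fit without both libraries that stood apart. Filled circles are present only for Dcn (-1.12) and Lum (-4.54) at 6 h, and the diamond of Podn at 6 h lies at -2.14 while its circle lies at 0.16.

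The difference between the PNU effects at the 2 times was tested itself, and passed for 0 of 9 members, where 0.035% of all genes passed, 0.0175% with a higher and 0.0175% with a lower effect at 6 h. At an unadjusted p under 0.05 there was 1 member, Dcn, and DESeq2 and limma-voom called 0, where they called 1.63% and 0.0233% of all genes. The PNU effect on Dcn was lower at 6 h than at 2 h by a log2 difference of -0.96 ± 0.32 (SE, edgeR adjusted p = 0.311), and that on Lum by -1.60 ± 1.08 (adjusted p = 0.600). For Bgn the difference was 0.26 ± 0.17 (adjusted p = 0.592). Without both libraries that stood apart, 2 members were called, Dcn at -0.54 (adjusted p = 0.0186) and Bgn at 0.32 (adjusted p = 0.0299), where 21.8% of all genes then were. Without DMSO replicate 3 at 2 h alone 1 member was, Bgn at 0.39 (adjusted p = 0.0356), where 16.7% of all genes were.

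Between 6 h and 2 h with DMSO, no member passed the test, and of all genes 0% did. Dcn and Lum had all 6 h libraries above all 2 h libraries, or 2 of 9 members, where 6.12% of all genes did, and 0 had them below, where 3.64% did. Since Lum passed the filter only through the DMSO libraries, counts that include it are not read against the shares. Dcn averaged 53.7 ± 1.43 CPM at 6 h and 26.0 ± 7.60 CPM at 2 h (SD, n = 3 each), a log2 fold change of 1.02 ± 0.23 (SE, edgeR adjusted p = 0.799), and Lum averaged 0.938 ± 0.170 and 0.423 ± 0.243 CPM, a log2 fold change of 1.13 ± 0.51 (adjusted p = 0.888). These were the 2 members at an unadjusted p under 0.05, where 4.77% of all genes were, and DESeq2 called Dcn alone (adjusted p = 0.0217), where it called 0.134% of all genes, while limma-voom called 0 members and 0% of all genes. With both libraries that stood apart left out, Dcn was the 1 member called, at 0.84 (edgeR adjusted p = 0.00351), where 0.672% of all genes were, and Lum was at 0.75 (adjusted p = 0.514). The comparison of PNU with DMSO at 6 h uses the same DMSO libraries.

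Between 6 h and 2 h with PNU, no member passed the test although 16.1% of all genes did, 7.42% higher and 8.66% lower at 6 h. Bgn had all 6 h libraries above all 2 h libraries, where 30.7% of all genes did, and no member had them below, where 21% did. Its level was 6707 ± 536 CPM at 6 h and 5177 ± 205 CPM at 2 h (SD, n = 3 each), a log2 fold change of 0.31 ± 0.12 (SE, edgeR adjusted p = 0.0893). Omd averaged 0.957 ± 0.510 CPM at 6 h and 2.43 ± 1.48 CPM at 2 h, with a log2 fold change of -1.40 ± 0.52 (adjusted p = 0.0805). Bgn and Omd were the 2 members at an unadjusted p under 0.05, where 35.1% of all genes were, DESeq2 called Omd alone (adjusted p = 0.0251), and limma-voom called 0 members, where they called 23.3% and 14.9% of all genes. In a fit of the PNU libraries alone Bgn was the 1 member called (adjusted p = 0.0243), where 32.1% of all genes were. Dcn was at 24.5 ± 7.53 CPM at 6 h and 22.6 ± 2.66 CPM at 2 h, a log2 fold change of 0.06 ± 0.23 (adjusted p = 0.878). When both libraries that stood apart were left out, 4 of 9 members were called, where 35.4% of all genes were. Dcn was then at 0.29 (adjusted p = 0.0415) and Bgn at 0.24 (0.0141), both higher at 6 h, and Omd was at -1.90 (0.0316) and Podn at -0.76 (0.0324), both lower. In the fit of all 12 libraries Podn had been at 1.52 ± 0.89 (adjusted p = 0.242).

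The members also differed in which libraries they followed. Over the 12 libraries, Pearson's r of log2 levels was 0.955 between Aspn and Ogn, 0.927 between Podn and Prelp and 0.916 between Aspn and Prelp, but 0.731 between Dcn and Lum, 0.512 between Aspn and Omd and -0.225 between Bgn and Omd. Lum was at 0.878 with Ogn and 0.814 with Aspn, and Omd at 0.679 with Ogn. The values of Lum, with at most 5 counts in any PNU library, depend on the prior count. All these values are descriptions over libraries that share groups, near-identical replicates and the scaling to library size. The genes whose pattern was most like that of a member, among those with a mean of at least 1 CPM, were Notch3 for Prelp (r = 0.997), Zcchc24 for Podn (0.986), Samhd1 for Ogn (0.986), Slc25a1 for Bgn (0.986) and Aldh6a1 for Aspn (0.981). For Omd it was Nudt4 (0.966), for Dcn Tigd2 (0.906) and for Fmod Galnt11 (0.873), the lowest of these maxima.

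**Figure D4:**
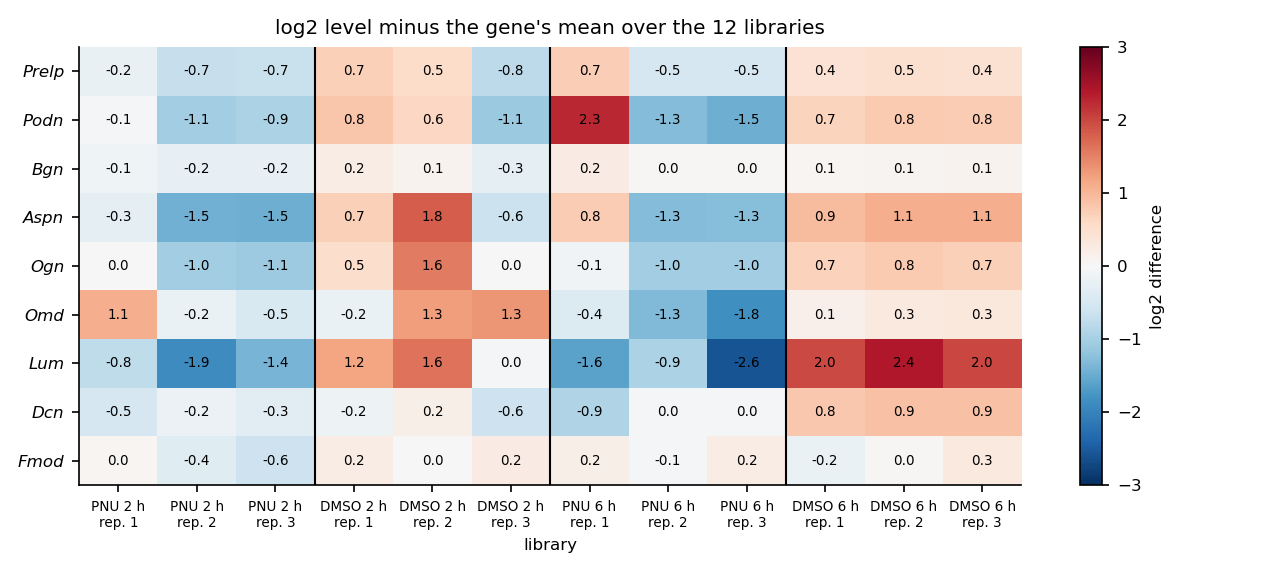
Heat map of the log2 level of each gene in each library minus that gene's mean over the 12 libraries, with genes in rows and libraries in columns ordered by group. Ogn and Aspn show like rows (r = 0.955), as do Podn and Prelp (r = 0.927), while Fmod varies little, with a highest-to-lowest CPM ratio of 2.01.

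Of 10 further genes of the same family, 6 could be tested, and 0 passed for PNU against DMSO at 2 h, at 6 h or for the difference, while 5 and 2 of them were at an unadjusted p under 0.05 at 2 h and 6 h and limma-voom called 0. DESeq2 called 1 higher and 1 lower at 2 h and 0 at 6 h. Ecm2, which lies beside Aspn on chromosome 13, averaged 0.691 ± 0.0496 CPM with PNU at 2 h and 2.61 ± 2.05 CPM with DMSO (SD, n = 3 each), a log2 fold change of -1.86 (edgeR adjusted p = 0.0941). At 6 h the Ecm2 values were 1.19 ± 0.710 and 3.09 ± 0.247 CPM (-1.36, adjusted p = 0.311). Tsku and Podnl1, the most abundant of the 10, were at positive values, Tsku with 75.3 ± 7.72 CPM under PNU and 56.9 ± 15.9 CPM under DMSO at 2 h (log2 fold change 0.44, adjusted p = 0.108) and Podnl1 with 24.3 ± 1.94 and 17.3 ± 4.62 CPM (0.51, adjusted p = 0.0810). At 6 h Tsku averaged 63.4 ± 1.73 CPM with PNU and 50.6 ± 1.30 CPM with DMSO (0.34, adjusted p = 0.339), and Podnl1 21.8 ± 1.12 and 15.5 ± 0.119 CPM (0.50, adjusted p = 0.154). Chad, Chadl and Optc had group means of at most 0.576, 6.08 and 0.607 CPM, with log2 fold changes at 2 h of -1.23, -0.28 and -1.32 and at 6 h of 0.20, -0.19 and -0.63. Epyc, Nyx, Nepn and Kera were not tested and reached at most 0.0705, 0.124, 0.0470 and 0.0311 CPM.

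Of the enzymes that build chondroitin and dermatan sulfate chains, 0 of 23 tested passed at 2 h, with 9 at an unadjusted p under 0.05, 4 called by DESeq2 and 0 by limma-voom, and 1 fell at 6 h. This was Chst13, a chondroitin 4-sulfotransferase, at 1.21, 0.544 and 0.549 CPM with PNU, against 3.79, 3.57 and 3.03 CPM with DMSO (log2 fold change -2.16 ± 0.37, SE, edgeR adjusted p = 0.0215). Every PNU library was below every DMSO library. The list's median log2 fold change was 0.02 at 2 h and -0.01 at 6 h. At 6 h 4 of the 23 were at an unadjusted p under 0.05, and DESeq2 called 2 higher and 1 lower. Of all genes, 30% were at an unadjusted p under 0.05 at 2 h and 15.6% at 6 h. Of all 17164 genes, DESeq2 called 985 higher and 1526 lower at 2 h, and 570 and 353 at 6 h. The same background applies to the lists below. Of keratan sulfate enzymes, 0 of 4 tested passed at either time, with medians of 0.41 and 0.19. At an unadjusted p under 0.05 there were 3 of them at 2 h and 0 at 6 h. DESeq2 called 2 higher at 2 h and 0 at 6 h, and limma-voom called 0.

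Among 17 growth factors and receptors that these proteins bind, 0 passed at 2 h and 1 rose at 6 h, with medians of 0.18 and 0.13. This was Egfr, the epidermal growth factor receptor, which decorin is known to bind, at 48.3, 43.3 and 42.6 CPM with PNU, against 28.0, 29.5 and 28.4 CPM with DMSO at 6 h (log2 fold change 0.66 ± 0.11, SE, edgeR adjusted p = 0.0192). The groups did not overlap. At 2 h 7 of the 17 were at an unadjusted p under 0.05, while DESeq2 called 6 higher and limma-voom 1. At 6 h 6 of the 17 were, while DESeq2 called 3 higher and limma-voom 1.

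Fibrillar and associated collagens passed in 0 of 11 tested at either time, with medians of -0.20 at 2 h and -0.21 at 6 h and with 2 and 5 genes at an unadjusted p under 0.05. Partners in matrix fibres passed in 0 of 12, with medians of -0.45 and -0.30 and 5 genes at an unadjusted p under 0.05 at each time. Proteases known to process these proteoglycans passed in 0 of 12, with medians of -0.23 and 0.59 and 3 and 5 such genes. Of 10 other matrix proteoglycans 1 rose at 2 h, Cspg4, the NG2 proteoglycan and a pericyte marker, at 579, 625 and 639 CPM with PNU, against 342, 295 and 404 CPM with DMSO (log2 fold change 0.86 ± 0.15, SE, edgeR adjusted p = 0.0385). At 2 h 5 of these 10 were at an unadjusted p under 0.05, while DESeq2 called 3 higher and limma-voom 1. At 6 h 0 of the 10 passed, with 4 at an unadjusted p under 0.05 and 1 called higher by DESeq2. DESeq2 called 2 and 3 of the collagens at 2 h and 6 h, 2 and 1 of the fibre partners and 3 and 2 of the proteases, where limma-voom called 0 of each. For the difference between the PNU effects, 0 genes passed with edgeR in any of these lists.

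Markers of other cell types moved with the groups too, and their part in the results was not tested. Summed over 7 fat-lineage markers, of which 4 had a median above 1 CPM, the level was 96.0 to 124 CPM with PNU and 119 to 477 CPM with DMSO at 2 h, and 115 to 266 CPM with PNU and 409 to 432 CPM with DMSO at 6 h. Of these 7, 1 fell at 6 h, Adipoq, an adipocyte hormone, which reached at most 0.0627 CPM with PNU but at least 1.83 CPM with DMSO (edgeR adjusted p = 0.0297). With PNU at 6 h it was at or near the floor of detection. These PNU libraries could not have carried it through the filter on low counts. All 7 fat-lineage markers had a negative log2 fold change at both times, with medians of -1.73 at 2 h and -1.35 at 6 h. At an unadjusted p under 0.05 there were 5 and 6 of them, DESeq2 called 5 and 4 lower, and limma-voom 0. Counts that include Adipoq are not read against the shares of all genes. Summed over 9 bone-lineage markers, the level at 6 h was 767 to 1288 CPM with PNU and 1451 to 1482 CPM with DMSO, and 1 of 7 tested fell, Sp7, the osteoblast factor osterix, to 1.69, 3.98 and 3.65 CPM with PNU, against 16.1, 15.1 and 15.9 CPM with DMSO (log2 fold change -2.32 ± 0.25, SE, adjusted p = 0.00276). Summed over 12 markers of pericytes and smooth muscle, it was 3108 to 3494 CPM with PNU and 2524 to 2571 CPM with DMSO at 6 h, and 3282 to 3631 CPM with PNU and 2414 to 3192 CPM with DMSO at 2 h. Of these, Cnn1 (log2 fold change 1.10 ± 0.22, adjusted p = 0.0380) and Mcam (0.47 ± 0.08, adjusted p = 0.0192) rose at 6 h. Of the 10 tested, 5 were at an unadjusted p under 0.05 at each time. DESeq2 called 1 of them higher and 1 lower at 2 h, and 4 higher at 6 h. Of the 7 bone-lineage markers tested, 2 and 3 were at such a p at 2 h and 6 h. DESeq2 called 1 of those 7 higher at 2 h and 1 lower at 6 h. The 20 fibroblast markers summed to 27806 to 30251 CPM with PNU and 28414 to 28551 CPM with DMSO at 6 h, and 0 of 19 tested passed, with 6 at an unadjusted p under 0.05 and 1 called by DESeq2. Of 5 leukocyte and microglia markers tested, Csf1r rose at 6 h (log2 fold change 1.81 ± 0.29, edgeR adjusted p = 0.0141), while Ptprc, the pan-leukocyte gene, reached at most 0.235 CPM. The sum over all 9 markers of that list did not rise with Csf1r. At 6 h it was 166 to 368 CPM with PNU (mean 233 CPM) and 354 to 361 CPM with DMSO (mean 357 CPM). The 20 Müller glia markers summed to 8101 to 8470 CPM with PNU, against 6625 to 7958 CPM with DMSO at 2 h, and the 9 tendon and cartilage markers to 312 to 367 CPM with PNU, against 103 to 271 CPM with DMSO. At 6 h the tendon and cartilage sum was lower with PNU, at 77.8 to 98.5 CPM, against 100.0 to 102 CPM with DMSO, and the Müller glia sum was 7031 to 8194 CPM with PNU and 7081 to 7134 CPM with DMSO. Of the Müller glia markers 0 of 15 tested passed at either time, with 8 and 6 at an unadjusted p under 0.05 and 7 and 5 called by DESeq2. In the lists for tendon and cartilage, cornea, RPE, endothelium and retinal neurons 0 genes passed at either time, with 0 to 2 genes a list at an unadjusted p under 0.05 or called by DESeq2.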

How the data were processed

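Poly(A) RNA of 12 libraries was measured by sequencing of paired 150 bp reads. Per the labels' protocols, the authors used fastp 0.23.2 for trimming, STAR 2.5.2b for alignment to GRCm38 and featureCounts of Subread 1.5.2 for gene-level counting, and deposited raw whole-number counts without normalization. DESeq2 is listed without a role, per the submitters' processing notes. The sources used here do not give how strand and multi-mapping reads were treated. Of 49315 gene IDs, 48970 matched a symbol. Totals were 44332013 to 66518799 counts.

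Counts were scaled to CPM, and to CPM per kb of the deposited exonic length for comparisons between genes. The test was that of edgeR 4.0.16, under R 4.3.3 (filterByExpr with a minimum count of 10, TMM, robust quasi-likelihood, 4 group means over 12 libraries, common biological coefficient of variation 0.198). P-values were adjusted by Benjamini-Hochberg over 17164 genes in each of 5 contrasts, with a threshold of 0.05. The SE is the size of the log2 fold change over the square root of F. Likeness is Pearson's r of log2 CPM with a prior count of 2. The procedure was tested on simulated data.

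The members and gene lists were chosen with earlier results of these data known. All 9 members are named, every gene of the further family list, and up to 4 genes per other list and PNU contrast that passed the test, taken by smallest adjusted p; likeness names genes of highest r. Marker genes and other list genes given only by level were picked with their values known. The alternatives were 10 other settings (other scalings, DESeq2 1.42.0, limma-voom of limma 3.58.1, other filters, fewer libraries, a replicate block, summed libraries) and each library left out in turn.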

Additional observations from a re-analysis of the deposited data

How the results depend on the processing

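The count of members called was 0 at 2 h, 2 at 6 h and 0 for the other contrasts. DESeq2 called 3 at 2 h, 1 for time with DMSO and 1 for time with PNU, where it called 14.6%, 0.134% and 23.3% of all genes. Without a filter on low counts 1 was called at 2 h and 1 at 6 h (0.427% and 0.705% of all genes), and with a filter of 1 CPM in 3 libraries, under which Lum was not tested, 1 at 6 h (1.36%). The PNU libraries alone gave 1 for time with PNU (32.1%). With near-identical libraries summed, 0 members and 0 genes of all were called at 6 h, a setting with fewer samples. Without both libraries that stood apart the counts of members were 7 at 2 h (52.2% of all genes), 7 at 6 h (28.6%), 2 for the difference (21.8%), 1 for time with DMSO (0.672%) and 4 for time with PNU (35.4%). Leaving out each library in turn gave 0 to 5 at 2 h, 0 to 3 at 6 h, 0 to 1 for the difference, and 0 for time with DMSO and with PNU. At 6 h the count was 3 without PNU replicate 1 (6% of all genes) and 0 without DMSO replicate 2 or 3. Podn turned to -2.14 at 6 h (edgeR, adjusted p = 0.0362 without PNU replicate 1 and 6.52e-05 without both libraries; range when leaving out 1 library -2.14 to 0.65), and to -0.76 for time with PNU without both (adjusted p = 0.0324). The cause was not tested.

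Between same-numbered PNU and DMSO libraries, deviations from the group means had correlations of -0.068 to 0.058 at 2 h. At 6 h these were -0.006 to 0.025. Replicate numbers thus gave no sign of a pairing, but with 3 libraries a group this check cannot exclude one. With the replicate block 0 members were called at 2 h and 2 at 6 h, while calls over all genes went to 311 at 2 h and 296 at 6 h, against 50 and 181 without it.

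Under TMM-scaled CPM, all but 2 of 36 group means of the members moved by less than the SD of their group. The exceptions, both with DMSO at 6 h, were Bgn at 6512 CPM and Prelp at 622 CPM. For the list genes Chst13, Egfr, Cnn1, Mcam, Adipoq and Csf1r at 6 h, alternatives chosen after seeing the data kept every sign. Their calls ended when PNU replicate 2 or 3 or any DMSO library was left out, with adjusted p-values of 0.0542 to 0.192, and with near-identical libraries summed. Adipoq also lost its call with limma-voom (0.116) and without a filter (0.0874). Sp7 lost its call only with near-identical libraries summed. Cspg4 at 2 h lost its call without PNU replicate 2 (0.188) or 3 (0.204), without DMSO replicate 1 (0.117) or 2 (0.170), in the 2 h libraries alone (0.266) and with libraries summed (0.550). Depth limited Lum, whose PNU libraries had at most 5 counts.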
